A study of Mus musculus with 3 samples.

Results

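Cxcl1, Cxcl2, Cxcl3, Cxcl5, Csf3 and Csf2 encode secreted proteins that bring neutrophils out of the bone marrow and into tissues. Their RNA was measured in spheroids of 4T1 cells, a mouse triple-negative breast cancer line, cultured alone or with splenocytes. The 6 genes were taken as the transcript lines that carry these gene names in the deposited expression tables, 1 RefSeq line for each gene, out of 24402 gene names in all. Each of the 3 libraries was one culture condition. The library labelled N was from spheroids that had no co-culture. The library labelled P was from spheroids grown with splenocytes primed by tumor antigen in vivo, and the library labelled R from spheroids grown with such splenocytes after their activation was reinforced with beads carrying antibodies to CD3 and CD28, and with IL2. In all conditions 4T1 cells, of Balb/c origin, were grown for 7 days on ultralow attachment plates in serum free medium with EGF and FGF, and spheroids larger than 40 µm were kept (cancer stem cell spheroids, CSCsp). Splenocyte donors were female Balb/c mice that had carried a 4T1 mammary fat pad graft, implanted at 8 weeks of age, for 28 days. The spheroids were strained and washed free of single splenocytes before RNA extraction, and by the study's methods equal amounts of RNA from 4 independent experiments were multiplexed. Whether each library is a mixture of these is not stated.

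There was 1 library per condition, so no comparison has a replicate check and no test between conditions was possible. Every interval given here is a 95% interval that covers counting error only. The deposited names of the libraries labelled N and P are worded differently from their labels. The name of the first refers to the saline DPBS, and that of the second to no treatment. By the study's methods, DPBS was used both to hold the unreinforced splenocytes and to wash the spheroids. The libraries are therefore called by their labels throughout, and every direction that involves N or P rests on those labels. With N and P exchanged, each difference between P and N given here would have the opposite sign, and the values of R over N and R over P would trade places.

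Levels are FPKM, fragments per kilobase of transcript scaled to the depth of the library, a measure per transcript length on which different genes can be compared. The aligned bases were equivalent to 17894139 fragments in N, 17887652 in P and 19178982 in R, so that an FPKM of 1 stood for 17.9, 17.9 and 19.2 fragments per kilobase. The spheroid RNA carried epithelial markers at a summed FPKM of 2423, 2134 and 1798, with 9 of 10 markers at an FPKM of 1 or more in each library and Krt5 listed at 0.

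Cxcl1, Cxcl2, Cxcl3 and Cxcl5 belong to the CXC chemokines with a glutamate-leucine-arginine motif before the first cysteines, which attract neutrophils through the receptor Cxcr2. Csf3 encodes granulocyte colony-stimulating factor (G-CSF), which drives neutrophil production and release from the marrow. Csf2 encodes granulocyte-macrophage colony-stimulating factor (GM-CSF), which acts on neutrophils, macrophages and dendritic cells. In many epithelial cells these genes are induced together by interleukin 1, interleukin 17 and tumor necrosis factor, by way of NF-kappa B and C/EBP factors, and their messenger RNAs are short-lived. 4T1 tumors are known for the strong neutrophil expansion they cause in mice.

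The 4 chemokine genes lie in 1 cluster on chromosome 5 and the genes of both growth factors lie apart on chromosome 11. Positions are in GRCm38, in which 99.4% of 23360 gene names in the tables, and 6 of 6 of these genes, overlapped the GENCODE gene of the same name. The submitters' processing notes name mm9. Cxcl5 stood at chr5:90759298-90761625, Cxcl3 at chr5:90786101-90788093, Cxcl1 at chr5:90891245-90893115 and Cxcl2 at chr5:90903899-90905938, all on the plus strand with 4 exons each. The cluster spanned 146.6 kb from the start of Cxcl5 to the end of Cxcl2, and 10.8 kb separated Cxcl1 from Cxcl2. Csf3 stood at chr11:98701313-98703631 on the plus strand with 5 exons. Csf2 stood at chr11:54247270-54249899 on the minus strand with 4 exons, where GENCODE has Gm12223 on the opposite strand, and whether the libraries kept strand is not given in the sources used here.

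The promoters of Cxcl1, Cxcl2 and Cxcl3 are shown because these 3 genes share the same letters upstream of their starts. All 3 were lower in P than in N. The stretch before the RefSeq start of Csf2 is shown because it does not hold these letters. That start is at 54249899, but the GENCODE gene starts at 54249667, inside the RefSeq transcript. The bases directly before the GENCODE start of Csf2 were not read. Sequences are from RefSeq (GRCm38.p6), which matched 4 of the 6 genes. Cxcl5 and Csf3 had no entry. Each line gives the 120 bases from 130 to 11 bases before the transcription start, on the gene's own strand, and the capitals mark GGGAATTTCCC, which is a form of the NF-kappa B site, and ATAAAAG, which resembles the core promoter's TATA box.
Cxcl1, chr5:90891115-90891234, plus strand: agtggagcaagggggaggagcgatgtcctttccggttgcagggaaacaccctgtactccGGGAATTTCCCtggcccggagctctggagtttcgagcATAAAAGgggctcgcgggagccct
Cxcl2, chr5:90903769-90903888, plus strand: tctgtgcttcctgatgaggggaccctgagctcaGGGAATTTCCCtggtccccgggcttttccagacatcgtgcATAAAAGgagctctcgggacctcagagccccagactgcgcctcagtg
Cxcl3, chr5:90785971-90786090, plus strand: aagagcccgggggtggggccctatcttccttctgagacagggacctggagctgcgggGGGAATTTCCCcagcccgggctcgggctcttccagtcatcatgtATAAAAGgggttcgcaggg
Csf2, chr11:54249910-54250029, minus strand: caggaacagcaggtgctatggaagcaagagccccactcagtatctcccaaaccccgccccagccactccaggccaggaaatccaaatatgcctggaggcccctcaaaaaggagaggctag

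GGGAATTTCCC, 11 bases long, was the longest run of letters that the 3 chemokine promoters share before their starts, and it was the only shared run of that length. It began 71 bases before the start of Cxcl1, 97 before that of Cxcl2 and 73 before that of Cxcl3. ATAAAAG began 34, 57 and 29 bases before these starts. The GENCODE gene Cxcl2 starts at 90903871, upstream of the RefSeq start at 90903899 and inside the stretch shown. The distances for Cxcl2 therefore hold for the RefSeq start alone. Over 300 bases around each start (250 before and 50 after) and on both strands, GGGAATTTCCC was present in 14 of 32851 RefSeq promoters (0.0426%) and ATAAAAG in 5.42%. The sites of these motifs did not overlap in the 3 promoters. The C/EBP-like letters TTGCNNAA, found in 10.8% of promoters, were in that of Csf2, beginning 145 bases before its start, and in none of the 3 chemokine promoters. The AP-1-like letters TGANTCA, found in 7.81% of promoters, were in none of the 4. For Csf2, both the match and the absences hold for the RefSeq start alone. The promoters of Ppbp, Pf4 and Cxcl15, which lie in the same chromosome 5 cluster, did not hold GGGAATTTCCC. The motifs were chosen after these sequences had been read, and a match is a description of the letters, not of binding.

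The 14 promoters with GGGAATTTCCC belong to 14 gene names, of which 10 were measured in these libraries. Only 4 of them reached an FPKM of 1 in N or P, namely Cxcl1, Cxcl2, Cxcl3 and Zfp84, a zinc finger gene that stood at 1.18 in N, 1.47 in P and 1.47 in R.

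Between N and P, all 6 genes had the lower level in P. Cxcl1, Cxcl2, Cxcl3, Cxcl5 and Csf3 were at least 2-fold lower, Csf2 was lower by less than that, and none was higher. Counted in the same way, on the ratio of FPKM plus 0.1 among genes that reached an FPKM of 1 in a library of the pair, 3.54% of 10200 genes were at least 2-fold lower in P and 2.74% were at least 2-fold higher. The median log2 ratio of the 6 genes was -1.61, beside a median of 0.02 over all genes counted. In R, the 6 genes no longer shared a direction against N. Csf3 was at least 2-fold higher, Cxcl3 and Cxcl5 at least 2-fold lower, and Cxcl1, Cxcl2 and Csf2 were within 2-fold, where 5.17% of 10270 genes were higher and 3.8% lower. The direction of Cxcl5 in this comparison depended on which transcripts were counted, as given below. Between R and P, all 6 levels were higher in R, by at least 2-fold for Cxcl1, Cxcl2 and Csf3. For comparison, 6.21% of 10292 genes were at least 2-fold higher in R and 3.69% lower. The comparisons share libraries, so their values are not independent of one another.

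**Figure D1:**
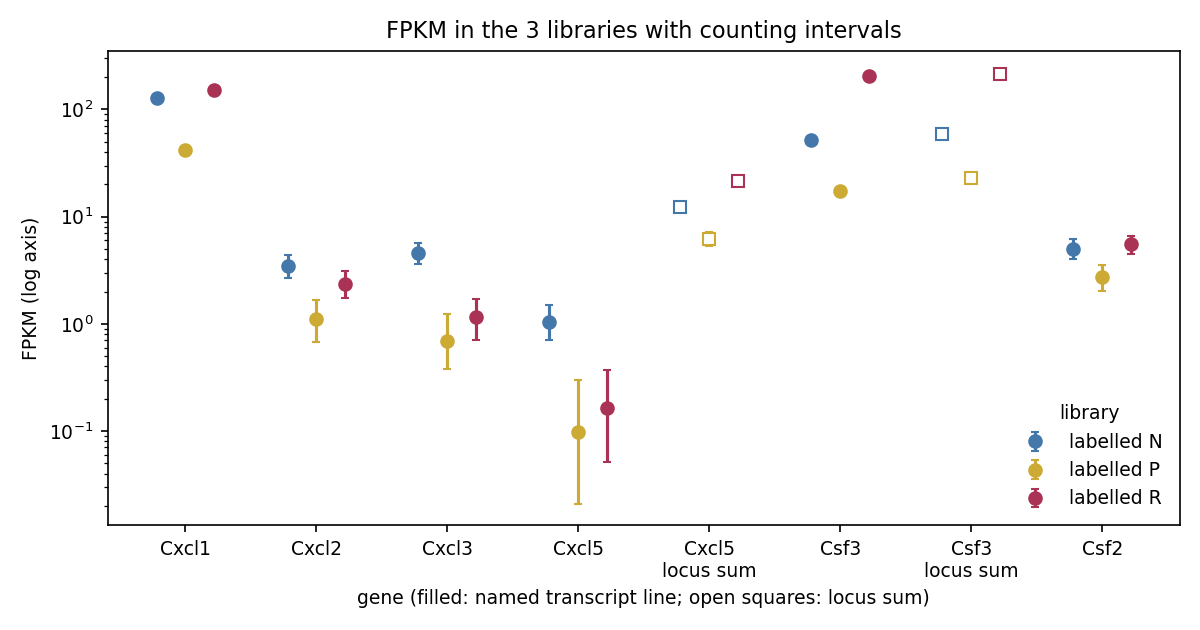
FPKM of each gene (log axis) by library label, with exact Poisson intervals on the fragments as bars, hidden by the symbol where narrow. Filled circles are the named transcript line and open squares the sum over all transcripts of the locus, drawn for the 2 genes where they differ; P is the lowest of the 3 libraries for every gene.

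Cxcl1, the mouse chemokine KC, had the highest level of the 4 chemokines in each library. Its FPKM was 127.4 in N (122.1 to 132.9), 41.4 in P (38.4 to 44.6) and 150.6 in R (145.1 to 156.4), from 2163, 703 and 2742 fragments. It ranked 319th, 1104th and 280th among all gene names. N and R were close to each other and well above P. The level in P was 3.08-fold lower than in N (2.82 to 3.35), and that in R was 3.64 times that in P (3.35 to 3.96). R over N was 1.18 (1.12 to 1.25). Each of its 4 exons gave the same directions, at 0.30 to 0.34 of N in P and 1.12 to 1.24 times N in R, in coverage per aligned base.

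Cxcl2, also called MIP-2, is a close relative of Cxcl1 and its neighbour on the chromosome, but its level was far lower. Its FPKM was 3.47 in N (2.68 to 4.39), 1.11 in P (0.67 to 1.66) and 2.35 in R (1.75 to 3.12), from 67, 21 and 49 fragments. N was the highest library and P the lowest. P was 3.13-fold lower than N (1.89 to 5.38) and R was 2.12 times P (1.25 to 3.72). R over N was 0.68 (0.46 to 0.99), an interval that ends just under 1. All 4 exons were lower in R than in N, at 0.50 to 0.93, with the longest, exon 4, at 0.93. The count of Cxcl2 as 2-fold higher in R than in P was a narrow one, with a ratio of 2.03 once 0.1 was added to both levels.

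Cxcl3 had the largest difference between N and P of the 5 genes whose named line carried over 10 fragments in each library. It encodes another neutrophil chemokine of the cluster. Its FPKM was 4.56 in N (3.63 to 5.65), 0.69 in P (0.38 to 1.22) and 1.14 in R (0.71 to 1.71), from 83, 13 and 22 fragments. N stood apart from the other libraries, whose intervals overlapped. P was 6.60-fold lower than N (3.66 to 12.9) and R was 3.98-fold lower than N (2.46 to 6.69). R over P was 1.66 (0.80 to 3.58), so a difference between R and P was not detectable at this depth. All 4 exons were lower in R than in N, at 0.24 to 0.27.

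Thus neighbouring genes of the cluster differed in how far R stood from N. The level of Cxcl1 over that of Cxcl3 was 27.9 in N, 60.0 in P and 131.6 in R. The level of Cxcl1 over that of Cxcl2 was 36.7, 37.4 and 64.1. In these values Cxcl1 and Cxcl2 kept nearly 1 ratio between N and P and not in R. Cxcl3 was set apart from Cxcl1 in both P and R. The Cxcl2 values rest on few fragments. For R over P the intervals of Cxcl1 (3.35 to 3.96) and Cxcl2 (1.25 to 3.72) overlapped. For R over N they did not (1.12 to 1.25 and 0.46 to 0.99), though the size of the Cxcl2 difference varied by exon, as given above. The genes on either side of the cluster showed little difference. Rassf6 stood at 6.57, 7.87 and 7.15 and Mthfd2l at 6.80, 7.12 and 5.94. Inside the cluster, the platelet chemokine genes Pf4 (1.80, 0 and 0.81) and Ppbp (0.51, 0.13 and 0.26) were near the limit of these libraries, and Cxcl15 was at 0, 0.05 and 0.

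Cxcl5 (LIX), the remaining neutrophil chemokine of the cluster, was the gene whose value depended most on what was counted. Its named RefSeq line, NM_009141, held an FPKM of 1.04 in N (0.71 to 1.48), 0.098 in P (0.021 to 0.30) and 0.16 in R (0.051 to 0.37), from 31, 3 and 5 fragments. By that line P was 10.6-fold lower than N (3.30 to 54.1) and R was 6.33-fold lower than N (2.44 to 20.8). R over P was 1.67 (0.33 to 10.8). These are few fragments, and most of the Cxcl5 RNA was elsewhere in the tables.

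At the Cxcl5 locus StringTie had assembled 3 further transcripts that carry no gene name. All 3 share introns 1 to 3 of the RefSeq transcript, and with them the joins between its coding exons, and leave out a stretch of 53 to 59 bases in the last exon, 341 to 347 bases after the end of the coding sequence, in the 3′ UTR. In GRCm38 that stretch is chr5:90760857-90760909 in the most abundant one, whose FPKM alone was 11.4, 4.67 and 19.0. The named line held 8.37% of the locus FPKM in N, 1.58% in P and 0.77% in R. Summed over the 4 transcripts, the locus stood at 12.4 in N (11.2 to 13.8), 6.21 in P (5.33 to 7.19) and 21.3 in R (19.7 to 23.0), from 357, 178 and 647 fragments. On this sum R, not N, was the highest library. P was 2.00-fold lower than N (1.67 to 2.41), R was 1.72 times N (1.51 to 1.96) and R was 3.43 times P (2.90 to 4.07).

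The direction between N and R was thus opposite in the named line and in the locus sum. All 4 exons of the locus had more coverage per aligned base in R than in N, at 1.44 to 1.80 times, and less in P than in N, at 0.46 to 0.56 times. Exons 1 to 3 are shared by the named line and the assembled transcripts, apart from the first exon's start in 1 of them, so their reads were divided between the transcripts by estimation. The intervals here do not cover that division.

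**Figure D2:**
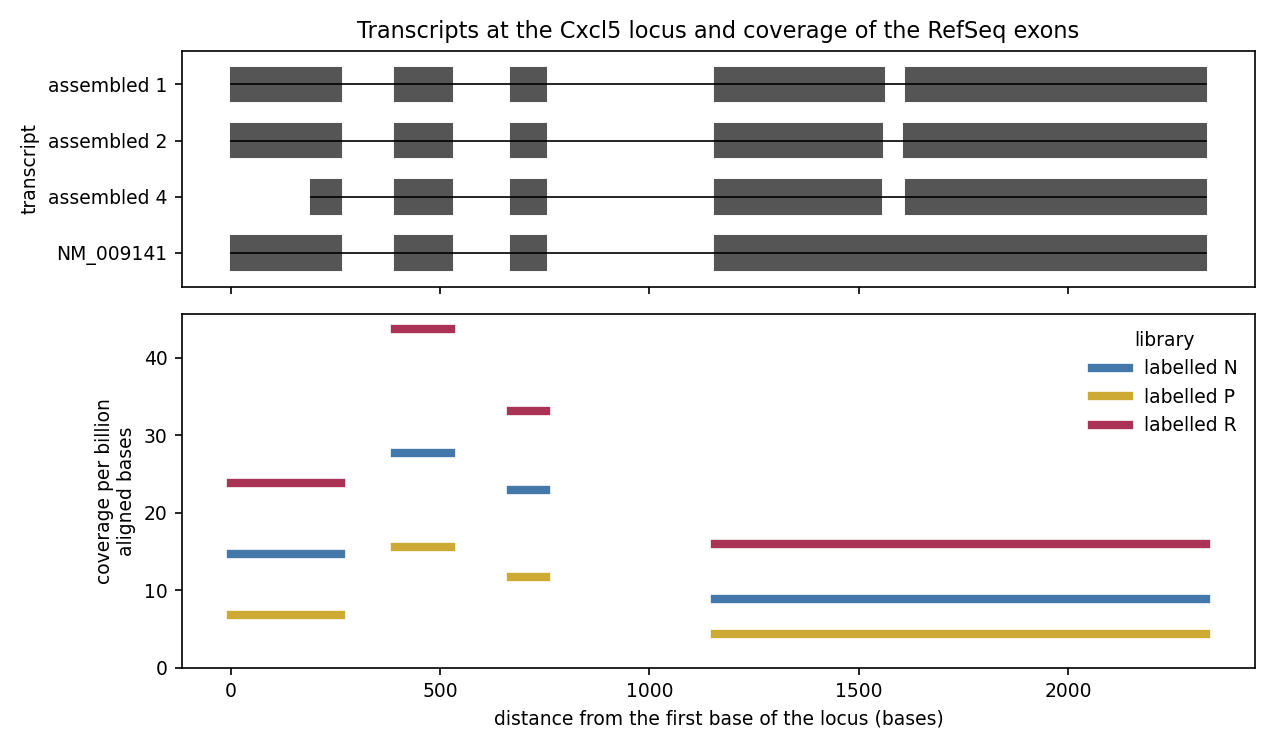
Transcripts at the Cxcl5 locus (top; boxes are exons) and coverage of the 4 RefSeq exons relative to the library's aligned bases, summed over all transcripts (bottom), against the distance in bases from the first base of the locus. R lies above N and N above P in every exon; the assembled transcripts leave out 53 to 59 bases of the last exon.

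Csf3 had the largest difference between R and P and was the only one of the 6 at least 2-fold higher in R than in N. The FPKM of its named line, NM_009971, was 52.3 in N (49.5 to 55.2), 17.2 in P (15.6 to 18.9) and 204.8 in R (199.4 to 210.4), from 1277, 420 and 5363 fragments. P was 3.04-fold lower than N (2.72 to 3.40). R was 3.92 times N (3.69 to 4.17) and 11.9 times P (10.8 to 13.2). Csf3 ranked 872nd among gene names in N, 2735th in P and 213th in R. In N and P it was lower than Cxcl1, at 0.41 and 0.42 of its level, and in R it was higher, at 1.36 times.

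StringTie also assembled 2 transcripts at Csf3 that keep all RefSeq introns and begin 1142 bases further upstream. They held 6.94 in N, 5.61 in P and 11.8 in R, which was 11.7%, 24.6% and 5.44% of the locus. With them, Csf3 stood at 59.2, 22.8 and 216.6, P was 2.60-fold lower than N (2.36 to 2.85), R was 3.66 times N (3.46 to 3.87) and R was 9.50 times P (8.74 to 10.3). The order of the libraries was the same. Each of the 5 RefSeq exons was higher in R than in N, at 3.25 to 3.86 times. The flanking genes differed far less. Psmd3, a proteasome subunit, had the same order of libraries, at 81.0, 72.5 and 95.6, and Med24, a Mediator subunit, stood at 55.0, 53.5 and 47.1.

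Csf2 had the smallest difference between N and P. Its FPKM was 5.02 in N (4.06 to 6.16), 2.72 in P (2.01 to 3.57) and 5.50 in R (4.52 to 6.64), from 93, 50 and 109 fragments. N and R had overlapping intervals and both lay above P. P was 1.85-fold lower than N (1.30 to 2.66) and R was 2.02 times P (1.43 to 2.89), or 1.99 times with 0.1 added to both levels, just short of the 2-fold count. R over N was 1.10 (0.82 to 1.46), which leaves a difference between them not detectable at this depth. Of its 4 exons, 3 were above 1 for R over N and 1 was below, at 0.96 to 1.22. Both growth factors therefore parted in R. The level of Csf3 was 10.4 times that of Csf2 in N, 6.33 times in P and 37.3 times in R. Il3, the gene next to Csf2, was at 0.15, 0.19 and 0.14.

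**Figure D3:**
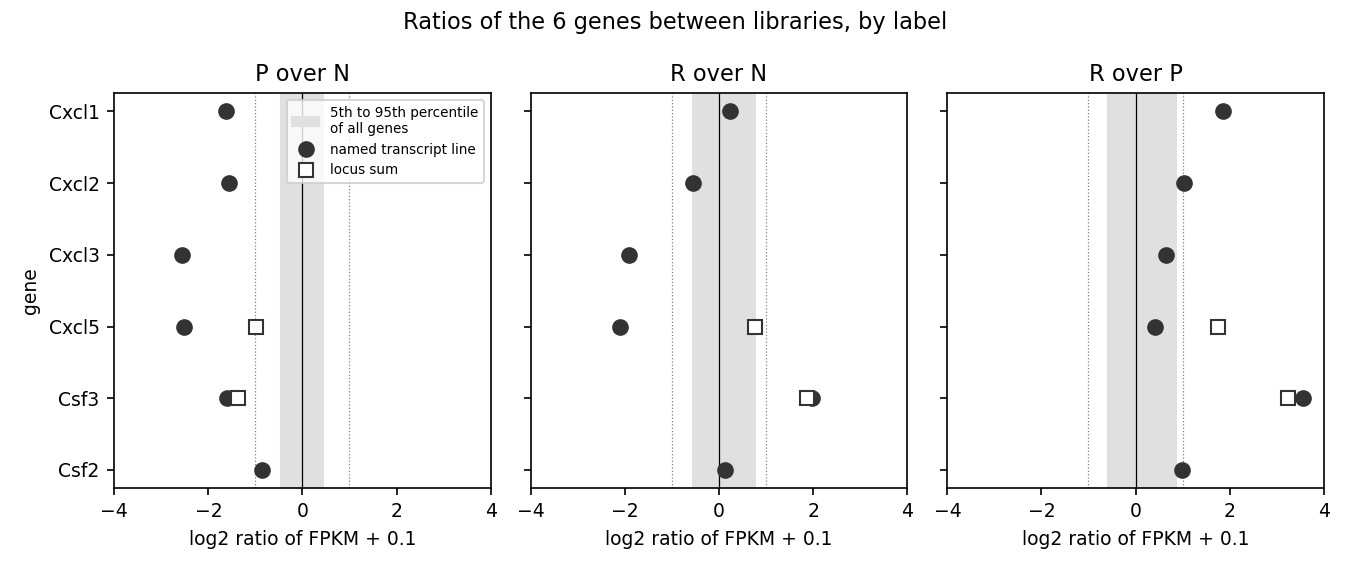
Log2 ratio of FPKM plus 0.1 for each gene (rows) in the 3 pairs of libraries (panels). Filled circles are the named line and open squares the locus sum of Cxcl5 and Csf3; the grey band is the 5th to 95th percentile of all genes by locus sum, and the dotted lines are at 2-fold. Every gene is left of 0 for P over N and right of 0 for R over P, and for R over N the squares of Cxcl5 and Csf3 are both right of 0.

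With locus sums for all genes, the count was 4 of 6 at least 2-fold lower in P than in N, since Cxcl5 came to a log2 ratio of -0.99, just short of 2-fold. Of 11140 genes, 1.55% were lower and 0.53% higher by that measure. Against N, 1 of the 6 was higher in R (Csf3) and 1 was lower (Cxcl3), where 3.09% and 1.89% of 11203 genes were. Against P, 4 of the 6 were higher in R (Cxcl1, Cxcl2, Cxcl5 and Csf3), beside 4.16% of 11213 genes, and 0 were lower, beside 1.69%. The medians of the 6 log2 ratios by locus sum were -1.47 in P against N, 0.19 in R against N and 1.39 in R against P, and those of all genes 0.03, 0.08 and 0.03. Summed over the 6 loci the FPKM was 212.0 in N, 74.9 in P and 397.5 in R. Cxcl1 and Csf3 made up most of each sum, with Cxcl1 at 60.1%, 55.3% and 37.9% and Csf3 at 27.9%, 30.4% and 54.5%.

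From here on, levels are locus sums. The receptors for these proteins were scarcely detected in the spheroid RNA. Of 7 receptor genes, 1 reached an FPKM of 1 in any library. That gene was Csf2rb, the common beta chain through which GM-CSF signals, at 1.32 in N, 0.40 in P and 1.20 in R. Cxcr2, the main receptor of the 4 chemokines, stood at 0.12, 0.014 and 0.034, from 7, 1 and 2 fragments. Csf3r, the G-CSF receptor, stood at 0.041, 0 and 0.039, and Ackr1, a chemokine-scavenging receptor, was listed at 0 in all 3. Csf2ra, the GM-CSF receptor's alpha chain, stood at 0.84, 0 and 0.39. In summed level the 7 receptors followed the order of N, R and P, at 2.79, 1.95 and 0.51.

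Other hematopoietic growth factors differed less between the libraries. Of 6 in the list, 4 reached an FPKM of 1 and 0 of these 4 differed by 2-fold in any comparison. Few of all genes did: 1.55% were at least 2-fold lower and 0.53% higher in P than in N. In R, 3.09% were higher and 1.89% lower than in N, and 4.16% higher and 1.69% lower than in P. Csf1 (M-CSF), which maintains macrophages, had its lowest level in P and its highest in R, at 54.0, 48.9 and 78.8, with P at 0.91 of N (0.86 to 0.95). Il34, the other ligand of the M-CSF receptor, stood at 8.86, 9.10 and 9.15 and Kitl (stem cell factor) at 12.1, 13.9 and 11.6.

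Among cytokines listed as possible inducers, Il1a was the one measured at a level that followed Csf3 and the Cxcl5 locus in order. It encodes interleukin 1 alpha and stood at 9.88, 4.51 and 27.4. Il1b, encoding interleukin 1 beta, stood at 1.95, 0.35 and 0.68, from 57, 9 and 22 fragments, with N the highest as in Cxcl3. Tnf stood at 2.83, 1.38 and 2.07 and Il33, an alarmin of the interleukin 1 family, at 7.63, 11.8 and 7.95. Il17a and Ifng, which T cells make, were listed at 0 in all 3 libraries, and Il17f and Il6 reached at most 0.22. Of the 8 inducers measured, 4 reached an FPKM of 1 in N or P. Of these, 2 were at least 2-fold lower in P (1.55% of all genes) and 0 higher (0.53% of all genes). Il36g had no line in the tables.

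The receptors and adaptors that pass these signals on were all present and changed little. All 13 in the list had an FPKM of at least 3.18 in every library. In each of the 3 comparisons 13 of 13 were within 2-fold, with 0.1 added to both levels. Most of all genes were too, by the shares given above for the growth factors. Il1r1 stood at 9.46, 12.4 and 8.14, Il17ra at 8.56, 8.56 and 8.78, Tnfrsf1a at 31.6, 28.2 and 48.2 and Myd88, the adaptor of interleukin 1 receptors, at 18.3, 15.2 and 23.8. The widest gap was that of Ripk1, a kinase of the tumor necrosis factor receptor complex, at 4.57, 4.32 and 8.69. The median log2 ratio of the 13 was -0.09 in P against N and 0.25 in R against P.

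Of 17 NF-kappa B, C/EBP and AP-1 genes, 16 had the lower level in P than in N. Only 2 were at least 2-fold lower (1.55% of all genes) and 0 were 2-fold higher (0.53% of all genes). These 2 were Cebpd (8.04, 2.02 and 7.31), which encodes C/EBP delta, and Fos (22.2, 9.36 and 13.8), an AP-1 subunit. The median log2 ratio of the 17 for P over N was -0.40, beside a median of 0.03 over all genes. The 5th to 95th percentile range of single genes was -0.47 to 0.43, which is not a range for a median of 17. Nfkb1, the p50 precursor, stood at 57.8, 33.2 and 53.6 and Cebpb at 442.7, 300.8 and 379.5. Nfkbiz, which encodes I-kappa-B-zeta, a co-activator at the promoters of several neutrophil chemokine genes, stood at 26.5, 17.3 and 43.7. In R against P, 3 of the 17 were at least 2-fold higher (4.16% of all genes), namely Cebpd, Nfkbiz and Fosl1 (19.4, 19.2 and 42.7). Fosl1 was also the 1 that was 2-fold higher against N (3.09% of all genes). Rela, the main activating subunit of NF-kappa B, stood at 57.8, 51.6 and 56.1.

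The 10 genes for proteins that bind or destabilize such messenger RNAs included 1 with a 2-fold difference. Zc3h12a encodes regnase-1, a nuclease that degrades inflammatory transcripts, and stood at 8.09, 4.06 and 14.8. It was at least 2-fold higher in R than in P, as were 4.16% of all genes. Zfp36 (tristetraprolin), which promotes decay of AU-rich transcripts including that of Csf2, stood at 33.5, 26.3 and 32.0. Arid5a, which stabilizes some inflammatory transcripts, stood at 6.03, 6.29 and 11.04.

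**Figure D4:**
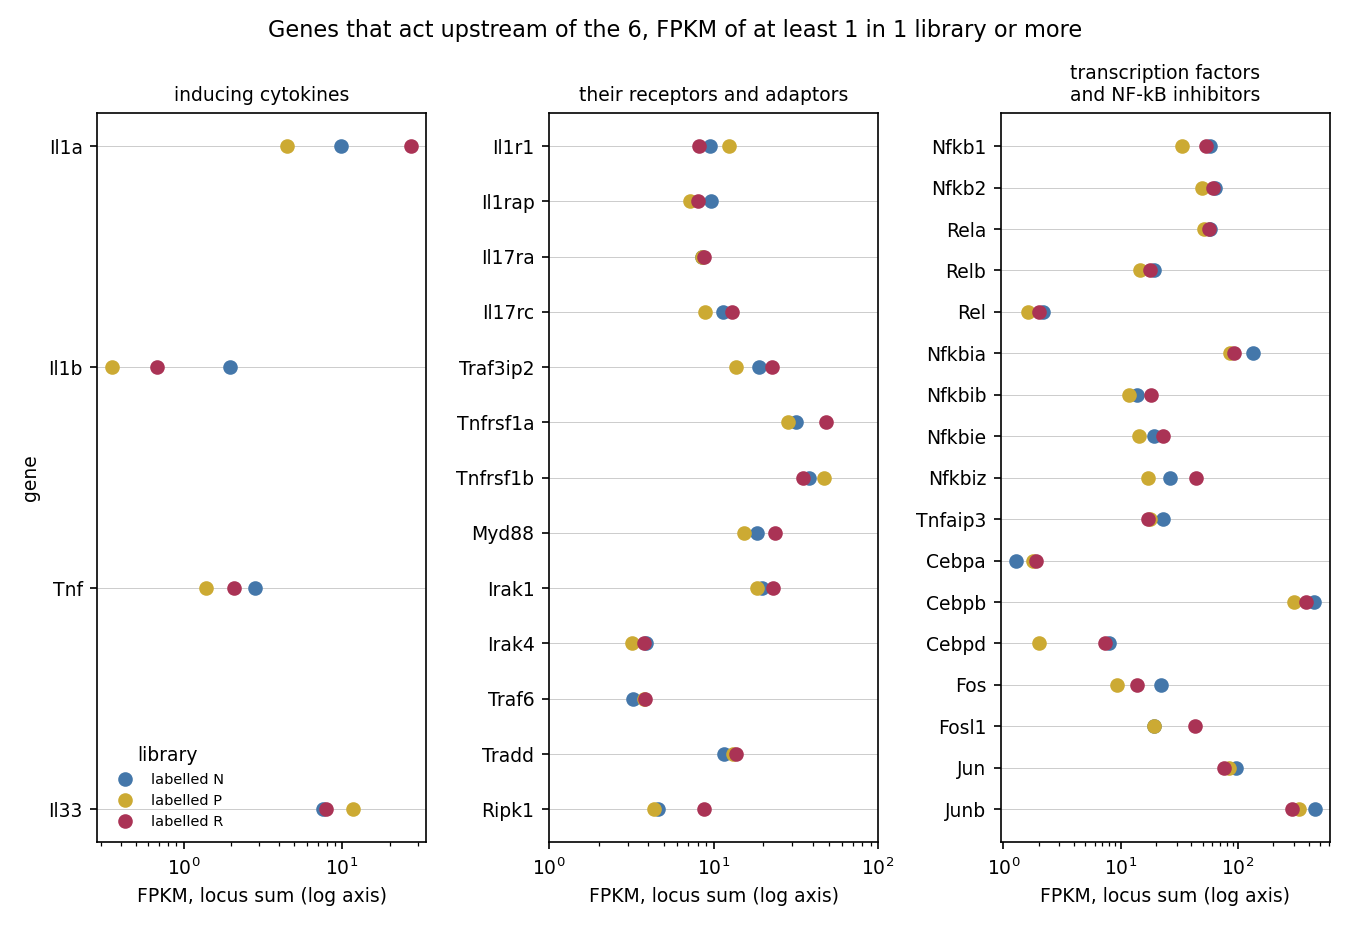
FPKM (locus sum, log axis) in the 3 libraries for cytokines listed as possible inducers, their receptors and adaptors, and transcription factors with their inhibitors. Each listed gene with an FPKM of at least 1 in any library is drawn. Il1a, Il1b, Cebpd, Fos, Fosl1 and Nfkbiz show clear gaps between libraries, and among the receptors and adaptors the widest gap is that of Ripk1.

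The chemokines outside the neutrophil group were also lower in P than in N, and most were at least 2-fold higher in R than in N. Of 12 in the list, 7 reached an FPKM of 1 in N or P, and all 7 were lower in P, 4 of them by at least 2-fold (1.55% of all genes). Of the 8 that reached an FPKM of 1 in N or R, 6 were at least 2-fold higher in R than in N (3.09% of all genes) and 0 were lower. Against P, 8 of 8 were higher in R, 6 of them by at least 2-fold (4.16% of all genes). Cxcl10, an interferon-induced attractant of T cells, stood at 21.7, 7.00 and 101.1, Cxcl11 at 2.64, 1.02 and 38.1 and Cxcl9 at 0.17, 0.094 and 34.9. Ccl2, which attracts monocytes, stood at 11.5, 3.26 and 39.7. Among the 6 neutrophil genes, Csf3 was the 1 that, like Cxcl10 and Ccl2, stood over 2-fold lower in P and over 2-fold higher in R than in N.

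For each of the 6 genes, the genes whose log2 ratios of P over N and R over N lay nearest were taken from 7880 genes that reached an FPKM of 5 in some library. The likeness rests on 3 libraries and is a description. Nearest to Cxcl1 were Tigit (13.2, 3.88 and 17.7) and Chil1 (10.2, 3.17 and 14.2). The Cxcl5 locus had Lcn2 (1126, 545.1 and 1931) and Sod2 (13.9, 7.20 and 22.8) at distances of 0.058 and 0.080. Nearest to Csf3 were Socs1 (9.82, 3.54 and 43.5) and Cfb (3.58, 1.06 and 14.3). Cxcl3 stood alone: 0 genes lay within a distance of 0.5, and its nearest, Mmp13 (14.5, 3.37 and 8.71) and Tomm6 (41.0, 17.0 and 17.7), were at 1.27 and 1.47. Cxcl2 was nearest to P2ry2 (9.53, 3.01 and 6.09) and Sfn (12.3, 4.54 and 8.90). Csf2 had 143 genes within 0.5, among them Ctps (14.1, 7.43 and 15.6).

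In summed level, markers of neutrophils and of macrophages were, like the 6 genes, lower in P than in N and R. By their labels, P was grown with splenocytes and N was not, and how these sums relate to splenocyte exposure was not tested. Whether N and P are exchanged was not tested. Of 16 neutrophil markers in the tables, 7 were listed at 0 in P, 0 in N and 1 in R. Of all 24402 gene names, 15742 were above 0 in N, 15556 in P and 16041 in R, and the others at 0. The summed FPKM of all 16 markers was 1165, 559.0 and 1957, nearly all of it Lcn2. Without Lcn2 and Ltf, left out after their levels were seen, the other 14 summed to 23.0 in N, 1.59 in P and 14.0 in R. S100a8, the most abundant of these, stood at 8.20, 0.55 and 5.58. The 13 macrophage markers summed to 53.2, 20.2 and 51.5 with 2, 4 and 1 at 0, and among them Lyz2 stood at 28.9, 0.31 and 6.51, Mpeg1 at 0.70, 0.23 and 24.5 and Cd68 at 21.4, 18.0 and 19.2. Lyz2 made up most of the difference between the sums of N and P, and Cd163, at 0.55, 1.25 and 0.49, was higher in P. Of 11 pan-leukocyte markers 0, 3 and 0 were at 0, and their sums were 56.2, 56.2 and 64.5. Without Lcp1, Arhgdib and Itgb2, left out after their levels were seen, the other 8 summed to 7.65, 0.79 and 6.41. Of the 7 pan-leukocyte markers with an FPKM of 1 in N or P, 4 were at least 2-fold lower in P (1.55% of all genes). Their defining member Ptprc (CD45) stood at 0.20, 0 and 0.31. T and NK cell markers were at 0 for 9, 12 and 5 of 14, with sums of 0.98, 0.53 and 3.15, and 7 B cell markers summed to 0.93, 0.21 and 1.65. The 7 fibroblast and endothelial markers summed to 3.97, 5.81 and 5.31. Whether RNA of leukocytes contributed to the levels of the 6 genes was not tested, and a share of cells and the RNA per cell cannot be told apart in these bulk libraries.

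**Figure D5:**
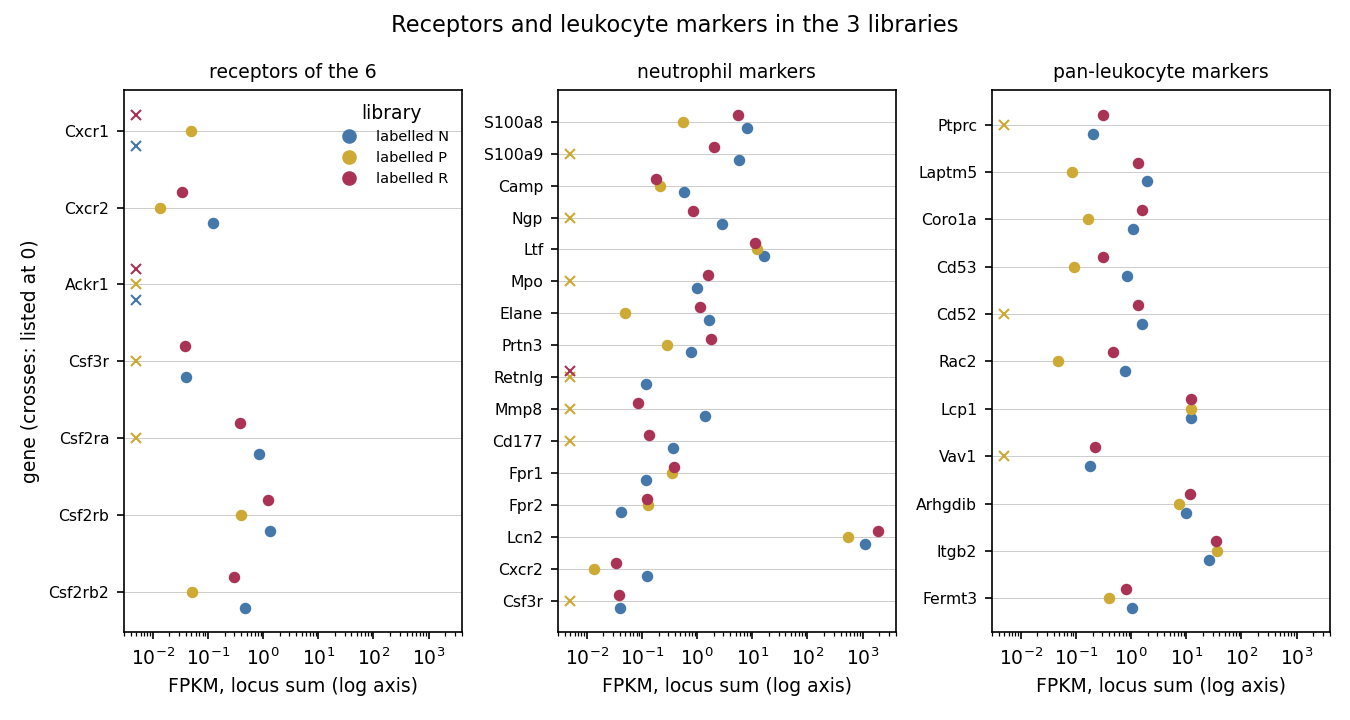
FPKM (locus sum, log axis; crosses are genes listed at 0, drawn at the left edge) of the receptors of the 6 proteins, of neutrophil markers and of pan-leukocyte markers in the 3 libraries. P is at 0 for 7 of 16 neutrophil markers, where 15556 of all 24402 gene names were above 0 in P. Lcn2 and Ltf, and Lcp1, Arhgdib and Itgb2, lie above the rest of their lists in every library.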

How the data were processed

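Each library came as 1 transcript table made by the authors with HISAT2 2.2.0 and StringTie, version 2.1.3 in the processing notes but 2.1.5 in the headers of the tables, against 1 merged annotation. The deposited values per transcript are FPKM, TPM and read coverage, with coverage per exon. They reflect how StringTie divided reads among overlapping transcripts, which no interval here covers. The authors' tables held 34970 transcripts with a gene name and 12520 assembled without one.

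A gene's value was the FPKM summed over lines carrying its name. The locus sum added the 9352 assembled transcripts that could be given to a gene by shared exon bases; 23.0% to 24.0% of FPKM was on unnamed lines. Fragments are coverage times length divided by 300 bases per read pair. Levels have exact Poisson intervals and ratios exact Clopper-Pearson intervals. Log2 ratios used a pseudocount of 0.1 FPKM, which understates changes of low genes, and 2-fold counts took genes that reached an FPKM of 1 in a library of the pair. There was no test, since each condition had 1 library. All 6 genes, all listed genes that stood out, the nearest genes and the chromosomal neighbours could be named. 1 gene that this rule names is not reported here. The 6 genes, the gene lists and the markers were chosen with earlier results of these data known. The counting step was checked on simulated data. 0 value columns belonged to no sample. Python 3.11.15, pandas 2.3.3, NumPy 2.4.6, SciPy 1.17.1 and Matplotlib 3.10.9 were used. The alternatives were TPM, other pseudocounts, filters and folds, rescaling, other ways to sum transcripts, and N and P exchanged.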

Additional observations from a re-analysis of the deposited data

Results flagged for a closer look

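Transcripts without a gene name, which a count by gene name does not use, carried more Cxcl5 and Csf3 RNA in R than in N. At Cxcl5 the assembled transcripts summed to an FPKM of 11.4 in N, 6.11 in P and 21.1 in R. At Csf3 they summed to 6.94, 5.61 and 11.8. These values are from 1 library each and the differences were not tested.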

How the results depend on the processing

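No paired analysis was possible because each condition had 1 library. TPM in place of FPKM, a pseudocount of 0.01 and rescaling by the median ratio were tried. Each left all 18 ratios of the 6 genes in their direction and within counting error. RefSeq transcripts alone gave the same values by construction, since the 1 named line of each gene is a RefSeq transcript. Genes near 2-fold moved 1 count: the number higher in R than in P, 3 as reported, was 2 with rescaling or a pseudocount of 1, and 4 with TPM, a pseudocount of 0.01, locus sums or the highest transcript alone. A pseudocount of 1 took the median log2 ratio for P over N to -1.32, the number 2-fold lower in P from 5 to 4 (4 also with locus sums) and the number 2-fold lower in R than in N from 2 to 1. Locus sums took the median for P over N to -1.47. In R against N they turned the median from -0.21 to 0.19 and Cxcl5 from -2.11 to 0.77, and left 1 gene 2-fold lower. Taking the transcript with the highest mean FPKM alone gave 0.73 for Cxcl5, the same median of 0.19 and 1 gene lower. Depth limits Cxcl5 by name, Cxcl3 in P and Cxcl2 in P.

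With N and P exchanged, the log2 ratios for P over N became 1.62 (Cxcl1), 1.56 (Cxcl2), 2.56 (Cxcl3), 2.52 (Cxcl5), 1.60 (Csf3) and 0.86 (Csf2), with a median of 1.61, 5 genes higher and 0 lower. For R over N, Cxcl2 became 1.02, Cxcl3 0.66 and Cxcl5 0.41, with a median of 1.01, 3 higher and 0 lower. For R over P, Cxcl2 became -0.54, Cxcl3 -1.90 and Cxcl5 -2.11, with a median of -0.21, 1 higher and 2 lower.

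The numbers of all genes at least 2-fold higher and lower were 279 and 361 for P over N, 531 and 390 in R against N, and 639 and 380 in R against P. With no filter they were 664 and 893, 948 and 872, and 1171 and 854. With a minimum FPKM of 5 they were 88 and 123, 291 and 134, and 360 and 146. With TPM they were 524 and 575, 802 and 594, and, for lower in R than in P, 644. With a pseudocount of 1 they were 156 and 228 for P over N, 230 lower in R than in N and 219 lower in R than in P. At 1.5-fold they were 612 and 720, 1197 and 767, and 1307 and 857. With locus sums, added after seeing the data, they were 59 and 173, 346 and 212, and 190 lower in R than in P.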
